A study of Mus musculus with 10 samples.

Results

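Fendrr, Foxf1, Foxf2, Foxl1, Bvht, Nkx2-3, Barx1, Twist1 and Tcf21 are genes of the mesenchyme, the loose connective and muscle-forming tissue around the gut tube. These 9 genes were looked up by symbol in a table of read counts for 20579 genes, and 7 of them had values. Foxl1 and Barx1 were not analysed here. Fendrr and Bvht were chosen by their counts in these 10 libraries, for a steady fall in p57KO, so their difference between genotypes is given as a description with no test, and the other 5 are given with their test. RNA sequencing was done on intestinal cells sorted for green fluorescent protein made from the Hopx promoter, taken from mouse embryos at embryonic day 18.5. The 2 groups were 5 p57KO and 5 p57WT libraries. p57KO embryos lack p57Kip2, the cyclin-dependent kinase inhibitor encoded by Cdkn1c, and p57WT embryos are the wild type. All 10 libraries share the mixed strain label C57BL6/J / 129S4 and the Hopx reporter. The knockout allele was not described in the sources used here. One intestine per library was taken from the design text, but no animal identifiers were given.

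Foxf1 and Foxf2 are forkhead transcription factors that gut mesenchyme makes in response to Hedgehog ligands from the epithelium, and they are known for their part in forming the muscle layers. Foxl1 is a related forkhead factor of the cells just beneath the epithelium, and Barx1 is a homeobox factor of the stomach mesenchyme. Nkx2-3 is a homeobox factor of gut and spleen mesenchyme, and Tcf21 and Twist1 are basic helix-loop-helix factors of mesoderm-derived tissues. Fendrr is a long non-coding RNA transcribed away from Foxf1 and is required in the lateral mesoderm, where it is known to bind the histone-modifying complexes PRC2 and MLL. Bvht (Braveheart) is a long non-coding RNA known for committing mesoderm to the cardiovascular lineage, and it also binds PRC2.

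The genotype labels were checked first. Cdkn1c was between 0.15 and 2.06 CPM (a read count scaled for the size of its library) in the p57KO libraries and between 150 and 457 CPM in the p57WT libraries. Hopx, whose promoter drove the reporter, averaged 150 ± 30.5 CPM in p57KO against 71.1 ± 6.71 CPM in p57WT (SD, n = 5 each). Total counts ranged from 8037887 to 26809231 per library. The share of counts on 3 ribosomal RNA features was under 0.5% in p57KO 1 to 4 and p57WT 2, and between 9.47% and 17.0% in p57KO 5 and p57WT 1, 3, 4 and 5. The 5 low-share libraries were also the 5 deepest. The labels also carry the numbers 607, 608 and 740, which the sources do not explain. Number 607 covers p57KO 1, p57KO 2 and p57WT 1, whereas 608 covers only p57KO libraries and 740 only p57WT libraries.

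The labelled cell type, an intestinal stem cell, was compared with marker genes. All 18 epithelial markers had reads in every library, with a summed level of 9330 to 17570 CPM in p57KO and 3187 to 7708 CPM in p57WT. The 16 smooth muscle markers also had reads in every library, and their sum was 6939 to 38136 CPM in p57KO and 63916 to 121249 CPM in p57WT. In every p57WT library the smooth muscle genes therefore summed to more than the epithelial genes. Foxf1, Foxf2 and the other factors were measured in this mixture, and in such bulk samples fewer cells of a type and less RNA per cell cannot be told apart.

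All 7 measured genes passed the filter on low counts. Among the 5 genes not picked for their fall, Foxf1, Foxf2, Nkx2-3 and Tcf21 were lower in p57KO at an adjusted p below 0.05, and Twist1 did not pass. The test was edgeR's quasi-likelihood test with Benjamini-Hochberg adjustment over 16710 genes, and every adjusted p given for a single gene below comes from it unless another is named. In that fit 36.5% of all genes were called in either direction and 17.2% were called lower and 19.3% higher. When the label number was added to the model, Foxf2 was still called lower and Foxf1, Nkx2-3 and Tcf21 were not (edgeR adjusted p = 0.185, 0.0956 and 0.494). The median log2 fold change of the 5 genes, p57KO over p57WT, was -1.88, and over all genes tested it was 0.08. For 4 of the 5, every p57KO library lay below every p57WT library, and 12.7% of all genes tested showed that separation. Fendrr and Bvht also separated in this way, which their choice had fixed.

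**Figure D1:**
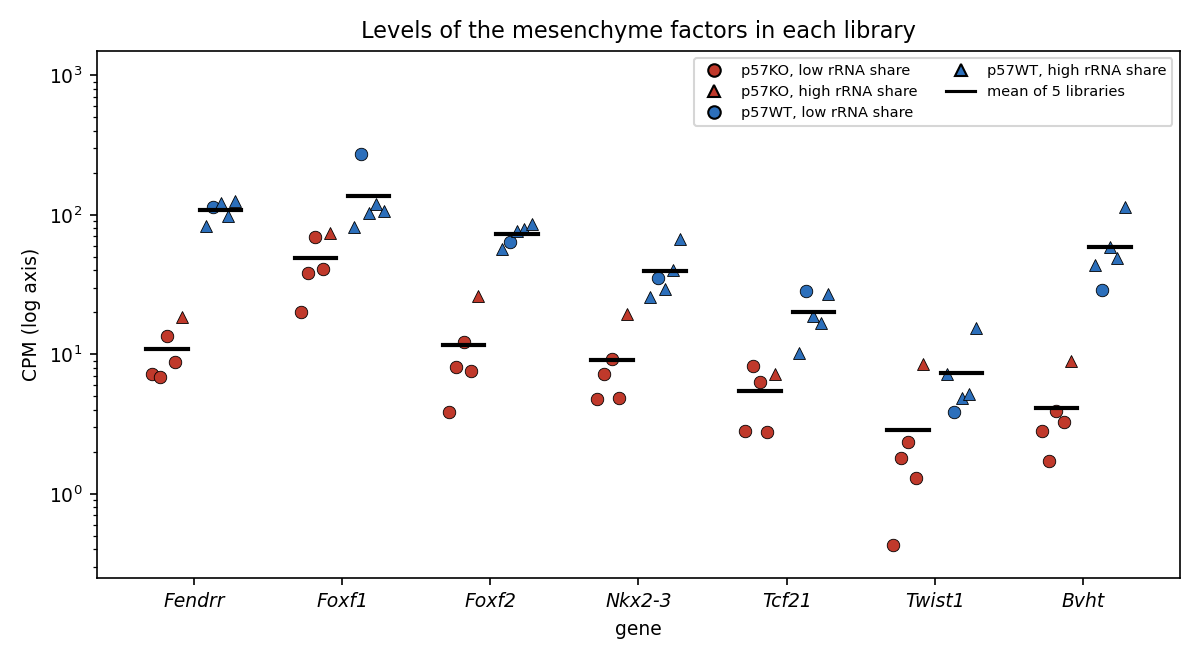
Level of the 7 measured genes in each library, in CPM on a log axis (p57KO red, p57WT blue, circles for a low and triangles for a high share of ribosomal RNA counts, lines for the mean of 5 libraries). The genotypes are separate for 6 genes and overlap for Twist1, where p57KO 5 at 8.50 CPM lies above 4 of the p57WT libraries.

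Fendrr (ENSMUSG00000097336, chr8:121054882-121083110, minus strand, GRCm38, 7 exon blocks) had the smallest relative spread among p57WT libraries. A choice for a steady fall can favour this, and Foxf2 was almost level (highest over lowest p57WT value 1.52, against 1.51 for Fendrr). The p57KO libraries 1 to 5 held 7.29, 6.92, 13.5, 8.75 and 18.5 CPM of Fendrr. The p57WT libraries 1 to 5 held 82.9, 113, 121, 98.8 and 125 CPM. The highest p57KO library, p57KO 5, was still far below the lowest p57WT library. Fendrr averaged 11.0 ± 4.94 CPM against 108 ± 17.4 CPM (SD, n = 5 each), a log2 fold change of -3.30. The authors' deposited table lists -3.27 for the same gene.

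Foxf1 (ENSMUSG00000042812, chr8:121084386-121088144, plus strand) starts 1276 bases from the start of Fendrr and is transcribed in the other direction. It measured 20.1, 38.3, 69.6, 40.8 and 74.5 CPM in p57KO 1 to 5. In p57WT 1 to 5 it measured 81.7, 275, 103, 120 and 107 CPM, so p57WT 2 stood far above the other wild-type libraries. The groups did not overlap, but p57KO 5 and p57WT 1 were close. Group means were 48.6 ± 22.9 and 137 ± 78.1 CPM (SD, n = 5 each), a log2 fold change of -1.50 (SE 0.40, edgeR adjusted p = 0.0119). Without p57WT 2 it was -1.07 (edgeR adjusted p = 0.0302). Among the 607 libraries Foxf1 was at -1.48 (edgeR adjusted p = 0.185).

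The divergent pair did not keep one proportion. The ratio of Fendrr to Foxf1 CPM was 0.363, 0.181, 0.194, 0.215 and 0.248 in p57KO 1 to 5. In p57WT 1 to 5 the ratio was 1.02, 0.412, 1.18, 0.823 and 1.17. Every p57KO library had a smaller ratio than every p57WT library, a separation described here with no test because Fendrr was chosen for its fall. p57WT 2, the wild-type library with a low ribosomal RNA share, was much nearer to the knockout libraries than the other 4. Among the high-share libraries, p57KO 5 had 18.5 CPM of Fendrr against 82.9 to 125 CPM in p57WT 1, 3, 4 and 5, while its Foxf1 level of 74.5 CPM was just under their 81.7 to 120 CPM. Among the low-share libraries, p57KO 1 to 4 had 6.92 to 13.5 CPM of Fendrr and 20.1 to 69.6 CPM of Foxf1, against 113 and 275 CPM in p57WT 2.

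**Figure D2:**
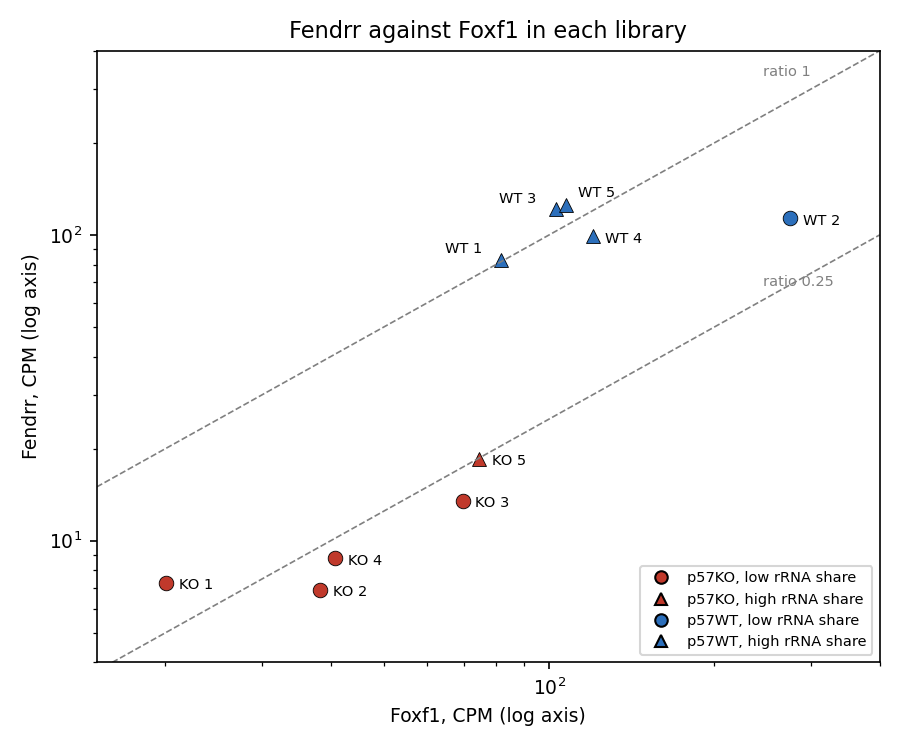
Fendrr against Foxf1 in each library, both in CPM on log axes (p57KO red, p57WT blue, circles for a low and triangles for a high share of ribosomal RNA counts, dashed lines for fixed ratios). The p57KO libraries lie near a ratio of 0.25 and 4 p57WT libraries near 1, with p57WT 2 between them at 0.412.

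Apart from Foxf1, Mthfsd was the only tested gene whose start lay within 250 kb of the start of Fendrr. Mthfsd, which begins 25.3 kb away on the far side of Foxf1, averaged 27.7 ± 6.02 CPM in p57KO against 31.8 ± 8.32 CPM in p57WT (SD, n = 5 each). Its groups overlapped, and its log2 fold change was -0.20 (SE 0.24, edgeR adjusted p = 0.535).

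The promoters of Fendrr and Foxf2, both low in every p57KO library, are shown because they held a match to one of the motifs searched. Promoters are RefSeq sequences of GRCm38.p6, from 250 bases before to 50 bases after the gene start, 5′ to 3′ on the gene's strand, and were found for 6 of the 9 genes. That of Fendrr covers chr8:121083061-121083360 (minus strand) and that of Foxf2 chr13:31625566-31625865 (plus strand). Capitals mark the forkhead motif GTAAACA in Fendrr and the E-box CAGCTG, a letter pattern of basic helix-loop-helix factors, in Foxf2.
Fendrr: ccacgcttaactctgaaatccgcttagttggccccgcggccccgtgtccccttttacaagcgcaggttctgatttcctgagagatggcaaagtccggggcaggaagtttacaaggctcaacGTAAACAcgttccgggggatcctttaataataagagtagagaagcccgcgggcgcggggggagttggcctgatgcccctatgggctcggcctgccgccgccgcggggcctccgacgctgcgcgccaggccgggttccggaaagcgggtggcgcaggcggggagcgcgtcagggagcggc
Foxf2: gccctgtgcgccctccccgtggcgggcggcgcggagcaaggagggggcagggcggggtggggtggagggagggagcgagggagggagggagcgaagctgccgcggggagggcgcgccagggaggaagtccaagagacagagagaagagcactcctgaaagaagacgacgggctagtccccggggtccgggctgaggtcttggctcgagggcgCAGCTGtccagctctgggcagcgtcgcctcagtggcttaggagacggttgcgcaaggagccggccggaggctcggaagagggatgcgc
GTAAACA, searched on both strands, occurred once in the Fendrr promoter, at bases 122 to 128 of the sequence, and in 3.65% of 32851 promoters of the same length. CAGCTG occurred once in the Foxf2 promoter and in 16.3% of all promoters. The promoters of Nkx2-3, Tcf21, Twist1 and Barx1 held neither. No match was found in the 6 promoters for the GLI motif GACCACCCA (0.253% of all promoters), the E-box CATATG (3.91%), CACTTGA, a motif of the NKX2 family (3.06%), or the CArG box of serum response factor (1.63%). The motifs searched do not overlap one another in these windows, and a match describes letters only.

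Foxf2 (ENSMUSG00000038402, chr13:31625816-31631403, plus strand) is the close relative of Foxf1, and its 2 groups were far apart. In p57KO 1 to 5 it reached 3.86, 8.15, 12.4, 7.61 and 26.1 CPM, against 56.8, 63.3, 76.2, 79.3 and 86.3 CPM in p57WT 1 to 5. On average this was 11.6 ± 8.65 and 72.4 ± 12.0 CPM (SD, n = 5 each), with a log2 fold change of -2.64 (SE 0.42, edgeR adjusted p = 0.000872). Among the 607 libraries Foxf2 was at -3.23, where the p57KO libraries had a low and p57WT 1 a high ribosomal RNA share. The ratio of Foxf2 to Foxf1 CPM was 0.178 to 0.350 in p57KO and 0.231 to 0.805 in p57WT, where 0.231 was again p57WT 2. These ratios overlapped between the genotypes.

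Nkx2-3 (ENSMUSG00000044220, chr19:43612325-43615892, plus strand) also fell in p57KO. Its knockout values, p57KO 1 to 5, were 4.80, 7.18, 9.32, 4.89 and 19.5 CPM. Its wild-type values, p57WT 1 to 5, were 25.9, 35.1, 29.5, 39.9 and 67.5 CPM. No p57KO library reached the lowest p57WT library, and p57KO 5 was again the highest of its group. The means of 9.14 ± 6.09 and 39.6 ± 16.5 CPM (SD, n = 5 each) gave a log2 fold change of -2.12 (SE 0.42, edgeR adjusted p = 0.00245). Within number 607 it was -2.10 (edgeR adjusted p = 0.0956).

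Tcf21 (ENSMUSG00000045680, chr10:22817281-22820174, minus strand) was less abundant, with 2.83, 8.27, 6.32, 2.75 and 7.29 CPM in p57KO 1 to 5 against 10.2, 28.4, 18.9, 16.8 and 26.9 CPM in p57WT 1 to 5. The gap between p57KO 2 and p57WT 1 was small, and both carry label number 607. The log2 fold change was -1.88 (SE 0.40, edgeR adjusted p = 0.00363), with means of 5.49 ± 2.56 and 20.3 ± 7.51 CPM (SD, n = 5 each). Within number 607 it was -0.86 (edgeR adjusted p = 0.494).

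Twist1 (ENSMUSG00000035799, chr12:33957671-33959829, plus strand) was the least abundant of the 7 genes and the one whose groups overlapped. It measured 0.43, 1.82, 2.34, 1.30 and 8.50 CPM in p57KO 1 to 5, against 7.26, 3.86, 4.82, 5.22 and 15.5 CPM in p57WT 1 to 5. p57KO 5 exceeded all p57WT libraries but p57WT 5. The log2 fold change was -1.36 (SE 0.67, edgeR adjusted p = 0.125). Without p57KO 5 it was -2.27 (edgeR adjusted p = 0.00911).

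Bvht (ENSMUSG00000098098, chr18:61639542-61647472, plus strand, 3 exon blocks) had the most negative fold change of the 7 genes. Knockout libraries 1 to 5 had 2.83, 1.73, 3.94, 3.25 and 9.02 CPM of Bvht, and wild-type libraries 1 to 5 had 43.7, 28.9, 59.0, 49.3 and 115 CPM. Bvht averaged 4.16 ± 2.84 CPM against 59.1 ± 32.9 CPM (SD, n = 5 each), a log2 fold change of -3.84. Bvht varied more between wild-type libraries than Fendrr did, from 28.9 CPM in p57WT 2 to 115 CPM in p57WT 5. With the ribosomal RNA class of the library as a term, a check added after seeing the data, the log2 fold change of Bvht was -3.09 and that of Fendrr was also -3.09.

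Bvht lies beside Carmn, a long non-coding RNA of smooth muscle and heart, and beside the hairpins of miR-143 and miR-145, which smooth muscle cells make in large amounts. Carmn had 21.0, 20.1, 53.1, 63.8 and 46.7 CPM in p57KO 1 to 5, against 144, 466, 242, 219 and 293 CPM in p57WT 1 to 5. The groups did not overlap, and the log2 fold change was -2.74 (SE 0.40, edgeR adjusted p = 0.000595). Reads over the Mir145a hairpin, which lies 352 bases past the end of Bvht on the other strand, averaged 0.24 ± 0.21 CPM in p57KO against 4.26 ± 2.43 CPM in p57WT (SD, n = 5 each). The log2 fold change of Mir145a was -4.09 (SE 0.69, edgeR adjusted p = 0.00112). The Mir143 hairpin did not pass the filter and had 0, 0, 1, 1 and 3 counts in p57KO 1 to 5 against 7, 42, 19, 5 and 10 in p57WT 1 to 5. These libraries count RNA over the hairpin genes and do not measure the mature miRNAs.

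The other genes around Bvht were read next. Of 10 tested genes whose starts lay within 250 kb of that of Bvht, Carmn and Mir145a were called lower, and Grpel2 and 1500015A07Rik were called higher. Over all genes tested these shares were 17.2% and 19.3%, so the counts around Bvht are near the background. Grpel2, a mitochondrial co-chaperone, had a log2 fold change of 1.13 (SE 0.26, edgeR adjusted p = 0.00516), and 1500015A07Rik, which starts beside it on the other strand, had 1.15 (SE 0.39, edgeR adjusted p = 0.0365). Csnk1a1, the casein kinase 1 alpha gene 84.3 kb before Bvht, averaged 501 ± 198 CPM in p57KO against 479 ± 56.6 CPM in p57WT (SD, n = 5 each), with a log2 fold change of 0.07 (SE 0.27, edgeR adjusted p = 0.867). Ppargc1b, Arhgef37, Il17b, Pcyox1l and Afap1l1 did not pass either. The ratio of Bvht to Carmn was 0.051 to 0.193 in p57KO and 0.062 to 0.391 in p57WT, and the ranges overlapped because p57WT 2 had 0.062.

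**Figure D3:**
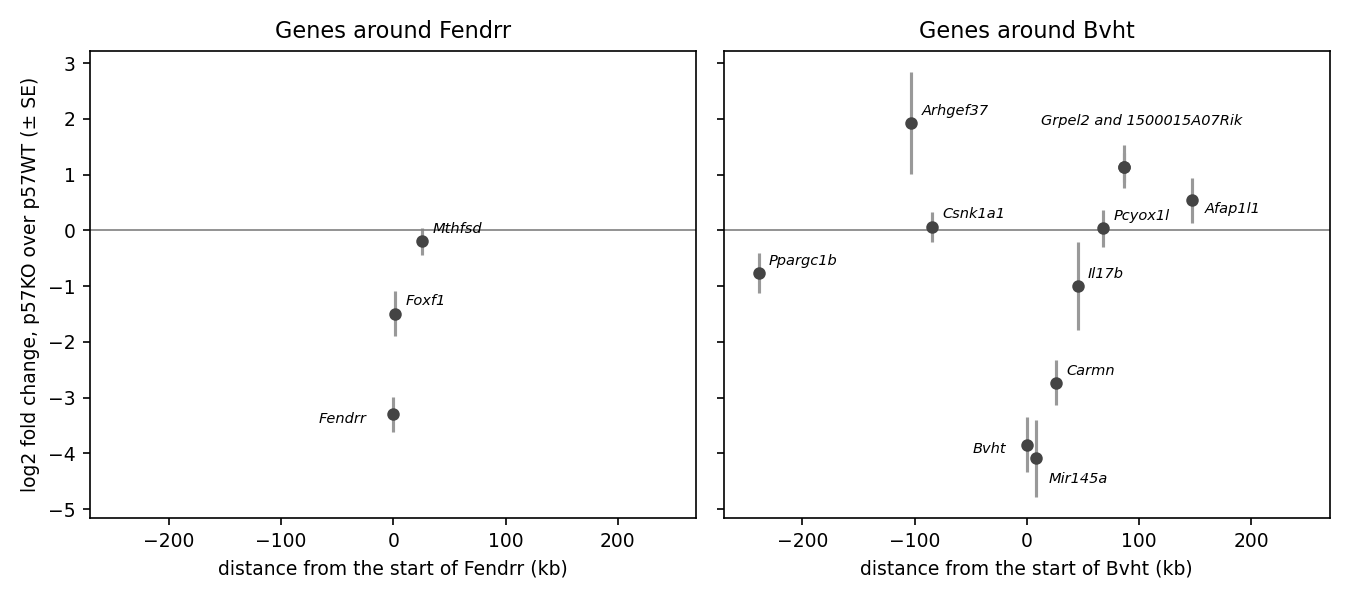
Log2 fold change (± SE, n = 5 libraries per genotype) of tested genes against the distance of their start from the start of Fendrr (left) or Bvht (right), in kb. Fendrr and Foxf1 lie below 0 with Mthfsd near it, and Bvht, Mir145a and Carmn lie well below 0 while Csnk1a1 and Pcyox1l are near it. Fendrr and Bvht were chosen for their fall, so their bars are not to be read as a test.

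Levels were compared between genes per kilobase of annotated exon. In p57WT the order of mean levels was Bvht at 84.5 ± 47.1, Foxf1 at 56.8 ± 32.3, Fendrr at 32.6 ± 5.25, Foxf2 at 30.6 ± 5.09, Nkx2-3 at 18.7 ± 7.80, Tcf21 at 8.63 ± 3.20 and Twist1 at 4.50 ± 2.90 CPM per kb (SD, n = 5). The mean ± SD ranges of Bvht and Foxf1 overlapped, as did those of Fendrr and Foxf2, and the genes were not compared within libraries. In p57KO Foxf1 led at 20.1 ± 9.48 CPM per kb. Bvht at 5.94 ± 4.06, Foxf2 at 4.92 ± 3.66, Nkx2-3 at 4.33 ± 2.89 and Fendrr at 3.31 ± 1.49 CPM per kb followed within each other's spread (SD, n = 5). Tcf21 at 2.34 ± 1.09 and Twist1 at 1.77 ± 1.98 CPM per kb were lowest there too. By mean level Foxf1 was thus first in p57KO, and Bvht was first in p57WT. Bvht was chosen for its fall in p57KO, so its lower place there is no separate result.

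Other transcription factors of gut mesenchyme were read from a list of 44 genes, of which 29 were tested. Of these, 12 fell, 3 rose and 14 were not called, where 17.2% of all genes tested were called lower and 19.3% higher. The median log2 fold change was -1.03 against 0.08 over all genes. Meis1, Meis2 and Pbx3, homeobox partners of the Hox proteins, fell with log2 fold changes of -2.10 (SE 0.43, edgeR adjusted p = 0.00289), -1.90 (SE 0.31, edgeR adjusted p = 0.00101) and -1.78 (SE 0.38, edgeR adjusted p = 0.00373). Scx, a helix-loop-helix factor of tendon, went from 10.9 ± 3.62 CPM in p57WT to 1.98 ± 0.89 CPM in p57KO (SD, n = 5 each, log2 fold change -2.46, edgeR adjusted p = 0.001). Foxp2, a forkhead factor, was at -2.29 (SE 0.52, edgeR adjusted p = 0.00526) and Zeb1, a zinc-finger factor of mesenchymal cells, at -2.07 (SE 0.48, edgeR adjusted p = 0.00606).

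Isl1 and Gata4 were among the genes that rose. Isl1, a LIM homeobox factor, averaged 37.0 ± 4.78 CPM in p57KO against 6.14 ± 2.28 CPM in p57WT (SD, n = 5 each), with no overlap and a log2 fold change of 2.603 (SE 0.32, edgeR adjusted p = 0.000286). Gata4, a zinc-finger factor, had a log2 fold change of 0.85 (edgeR adjusted p = 0.0247). Isl1 is also made by enteroendocrine cells and Gata4 by intestinal epithelium, so neither is a factor of mesenchyme alone. After the label number was added to the model, the median log2 fold change of the list was -0.67, against 0.15 over all genes. That contrast has p57WT 1 as its only wild-type library.

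**Figure D4:**
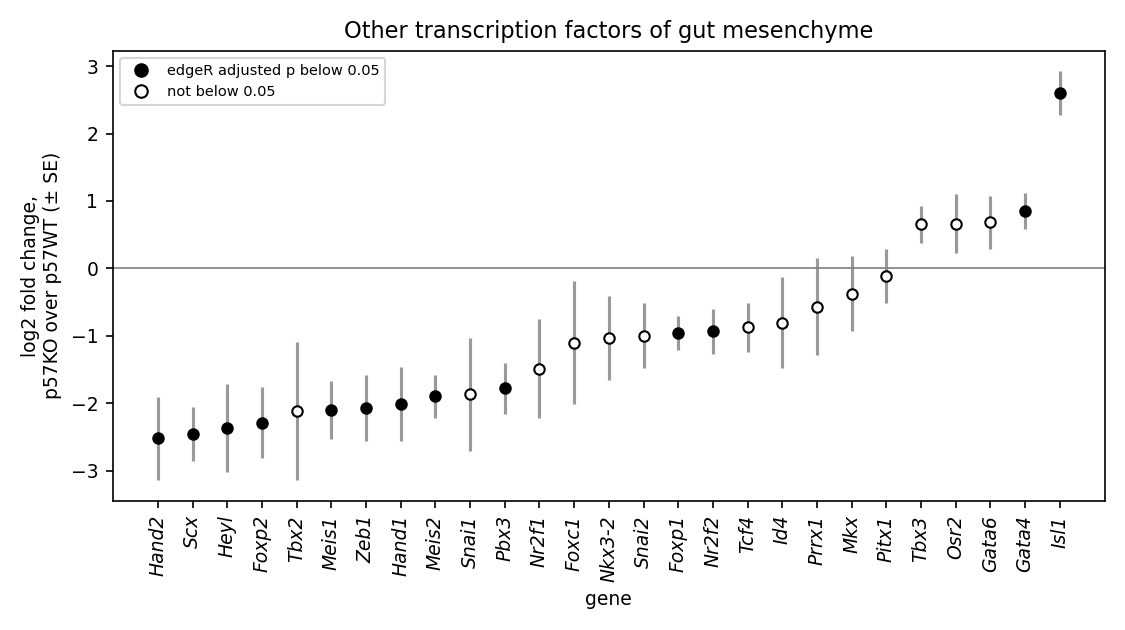
Log2 fold change (± SE, n = 5 libraries per genotype) of 27 of the 29 tested factors in the list of other gut mesenchyme transcription factors, in ascending order, filled where the edgeR adjusted p was below 0.05. Most lie below 0, and Isl1 stands apart at 2.603.

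Foxf1 and Foxf2 respond to Hedgehog signalling, so a list of 12 genes that receive or pass on the signal and the 2 ligands Ihh and Shh was read beside them. Of these 14 tested genes 12 fell, none of them a ligand, where 17.2% of all genes tested were called lower. The median log2 fold change was -2.12. Ptch1, the receptor and itself a target of the pathway, averaged 26.6 ± 8.42 CPM in p57KO against 92.7 ± 18.1 CPM in p57WT (SD, n = 5 each, log2 fold change -1.80, edgeR adjusted p = 0.000605). The co-receptor Boc fell with -2.58 (edgeR adjusted p = 0.000746), the ciliary kinesin Kif7 with -2.58 (edgeR adjusted p = 0.00158) and the signal transducer Smo with -1.73 (edgeR adjusted p = 0.00245). The epithelial ligand Ihh rose, with a log2 fold change of 0.64 (SE 0.23, edgeR adjusted p = 0.0454), and Shh was not called.

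Signalling genes linked to FOXF1 and FOXL1 in mouse studies made up a list with 19 tested genes, of which 11 fell and 1 rose. The shares of all genes tested were 17.2% called lower and 19.3% higher. The list median was -1.84. Bmp4, a mesenchymal ligand of the BMP pathway, averaged 1.42 ± 1.501 CPM in p57KO against 14.3 ± 5.29 CPM in p57WT (SD, n = 5 each, log2 fold change -3.37, edgeR adjusted p = 0.00123). Grem1, a secreted BMP inhibitor, was at 89.9 ± 51.0 and 480 ± 99.2 CPM (SD, n = 5 each, log2 fold change -2.42, edgeR adjusted p = 0.000768). The Wnt inhibitor Sfrp1 fell with a log2 fold change of -2.51 (edgeR adjusted p = 0.000577) and the receptor Notch2 with -2.32 (edgeR adjusted p = 0.000699). Sox6, a transcription factor, rose with 0.89 (edgeR adjusted p = 0.024). Ligands and inhibitors of the same pathway were thus both among the genes that fell.

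The PRC2 and MLL complexes include the protein partners of Fendrr and Bvht. Of 19 genes of these complexes, 3 rose, 2 fell and 14 were not called, with a median log2 fold change of 0.03. Over all genes tested 19.3% were called higher and 17.2% lower, so these counts are near the background. Dpy30, a shared MLL subunit, rose with 1.03 (edgeR adjusted p = 0.0051), as did Rbbp7 with 1.40 (edgeR adjusted p = 0.0143) and the PRC2 subunit Eed with 0.64 (edgeR adjusted p = 0.0348). Kmt2b, a histone methyltransferase, fell with -1.03 (edgeR adjusted p = 0.0146) and Hcfc1 with -0.58 (edgeR adjusted p = 0.0247). The count of 2 called lower was 0 with the label number or the ribosomal RNA class as a term and with stroma or smooth muscle scaling, 4 with limma voom and 11 with epithelium scaling. It was 4 without p57KO 1, and 1 without p57KO 3, p57KO 4, p57WT 3, p57WT 4 or p57WT 5. With epithelium scaling 9682 of all 16710 genes tested were called lower, so the count of 11 there is near the background. Of 10 tested long non-coding RNAs in a further list, Carmn, the imprinted RNA Meg3 and Hand2os1, the antisense neighbour of Hand2, fell, and Gas5 rose. Meg3 had a log2 fold change of -2.45 (edgeR adjusted p = 0.0038), Hand2os1 -1.49 (edgeR adjusted p = 0.00544) and Gas5 1.07 (edgeR adjusted p = 0.0358).

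Most markers of stromal cells fell in p57KO, where 17.2% of all genes tested were called lower. Of general stroma markers, mainly collagens and matrix proteins, 14 of 15 tested fell (median log2 fold change -2.63), with a summed level of 407 to 2675 CPM in p57KO and 5486 to 16173 CPM in p57WT. All 16 smooth muscle markers fell (median -2.29). Of fibroblast markers 7 of 8 fell (median -2.22, summed level 165 to 587 CPM in p57KO and 610 to 2189 CPM in p57WT), and of pericyte markers 6 of 7 fell (median -2.43, 79.5 to 345 CPM and 808 to 1334 CPM). With the ribosomal RNA class as a term, 2 fibroblast and 5 pericyte markers were called lower (medians -2.09 and -2.06). Over all 16710 genes tested 1752 were then called lower. With the label number as a term the fibroblast and pericyte medians were -2.41 and -2.12. Thy1 was at 0 in at least 1 p57KO library, and no smooth muscle, fibroblast or pericyte marker was at 0 in any library.

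Lists of other cell types moved in various ways, and are to be read beside the 19.3% of all genes tested called higher and 17.2% called lower. Epithelial markers rose for 15 of 18 genes (median 1.25), leukocyte markers for 11 of 11 (median 4.62, summed level 224 to 9272 CPM in p57KO and 30.4 to 179 CPM in p57WT) and erythroid markers for 7 of 8 (median 3.49, 105 to 1310 CPM and 3.14 to 87.8 CPM). At least 1 p57WT library had 0 counts for 3 leukocyte and 6 erythroid markers. No mesothelial or endothelial marker was called, of 3 and 4 tested. Of enteric neuron and glia markers 4 of 10 fell and 1 rose, and of markers of interstitial cells of Cajal 2 of 5 fell and 2 rose. The part of these cell types in the values of the 7 genes was not tested.

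How the 7 genes stood relative to the stroma was measured by scaling each library to the geometric mean of its general stroma markers. On that scale the log2 fold changes of Fendrr, Foxf2 and Bvht were -0.38, -0.02 (edgeR adjusted p = 0.975) and -0.91. Those of Nkx2-3, Twist1 and Tcf21 turned to 0.81, 1.13 and 1.26 (edgeR adjusted p = 0.221, 0.127 and 0.0853). Foxf1 was 1.34 on that scale (edgeR adjusted p = 0.0437) and was called higher, as were 14748 of all 16710 genes tested. The call therefore does not set Foxf1 apart, and its 1.34 lies below the median of all genes. The same scaling moved the median of all genes from 0.08 to 3.36, and 99.8% of the genes called were then higher, against 52.8% with the main scaling, TMM (trimmed mean of M values). The p57KO libraries disagreed for Fendrr. Its log2 level less the stroma mean of the same library was -1.06, -2.25, -3.02, -2.87 and -2.75 in p57KO 1 to 5. In p57WT it was -2.59 to -1.45. Thus p57KO 1 lay above all p57WT libraries, and p57KO 3 to 5 lay below all of them.

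With libraries scaled to the smooth muscle markers, which put the median of all genes at 2.99, Fendrr was at -0.74, Bvht at -1.42 and Foxf2 at -0.25 (edgeR adjusted p = 0.638). Foxf1, Tcf21, Twist1 and Nkx2-3 were at 1.09, 1.03, 0.83 and 0.44 (edgeR adjusted p = 0.053, 0.137, 0.257 and 0.463). Of genes called, 99.6% were then higher. Scaling to the epithelial markers put the median of all genes at -1.18, with 5.05% of calls higher, and all 7 genes were lower there, Twist1 included with -2.58 (edgeR adjusted p = 0.0093).

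**Figure D5:**
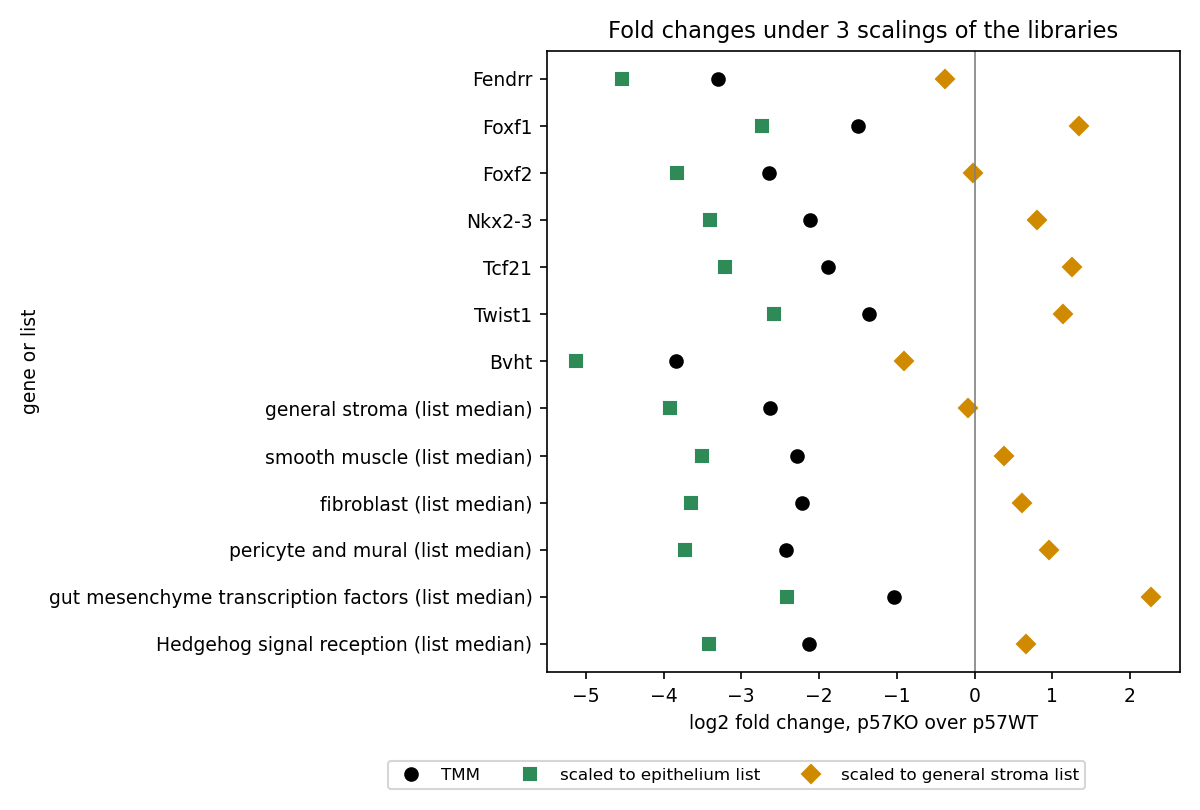
Log2 fold change of the 7 genes and median log2 fold change of 6 gene lists (p57KO over p57WT, n = 5 libraries per genotype) under 3 scalings of the libraries. On the stroma scale Fendrr, Foxf2 and Bvht lie at or below 0, and Foxf1 at 1.34 is the highest of the 7 genes.

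Ribosomal RNA share and label number were set beside the genotype difference. With the ribosomal RNA class as a term, Foxf1 was at -1.59 (edgeR adjusted p = 0.0251), Foxf2 at -2.25 (edgeR adjusted p = 0.00368), Nkx2-3 at -1.74 (edgeR adjusted p = 0.0114), Tcf21 at -1.92 (edgeR adjusted p = 0.0149) and Twist1 at -0.65 (edgeR adjusted p = 0.448). The same 4 genes were called lower as without the term, and so were 1752 of all 16710 genes tested. Only p57KO 5 in p57KO had a high share and only p57WT 2 in p57WT a low one, so the term rests on these libraries. Within label number 607, which sets 2 p57KO libraries against 1 p57WT library and assumes that the lone library varies like the other groups, Fendrr was at -3.54 and Bvht at -4.28. Twist1 was at -2.63 there (edgeR adjusted p = 0.203). Numbers 608 and 740 hold 1 genotype each, so outside 607 the number and the genotype cannot be told apart.

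Genes whose levels varied most like Fendrr within the genotypes were found from log2 CPM after the mean of each genotype was removed. Over the 10 libraries and 12428 genes, the closest to Fendrr were Prkacb, a catalytic subunit of protein kinase A (Pearson r 0.985), Uggt2 (0.978), Clip4 (0.972), Tns1, a focal adhesion protein (0.969), and 4930402H24Rik (0.967). Foxf2 was at 0.875 and Foxf1, the neighbour of Fendrr, at 0.678, ranked 1109 of the 12428 genes. The closest to Foxf1 were Spata2 (0.974), Lims2 (0.973), Abhd8 (0.970), Dtx3 (0.969) and Kctd10 (0.965). For Bvht they were Megf9 (0.967), Lgalsl (0.963), Cadps (0.962), Glis2 (0.952) and Vasp (0.952), and Foxf1 was at 0.0992. These correlations describe 10 libraries that differ in depth and in ribosomal RNA share, and those differences enter every gene compared.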

How the data were processed

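The authors deposited one table with whole-number counts of reads per gene and library, not normalized, per the file headers. A signal per library, the count divided by a size factor, was deposited beside it. The genotype comparison was deposited by the authors as a log2 fold change with its error, a Wald score and a p-value. Tools named in the submitters' processing notes are STAR 2.6.1d, HTSeq 1.0, DESeq2 1.22.2, Cufflinks 2.2.1, Trim Galore and FastQC, with build mm10 (GRCm38). Their roles, the annotation and whether counting used strand are not given in the sources used here. Reads of overlapping genes on opposite strands therefore cannot be told apart. Foxf1 and Foxf2 each overlap a small annotated RNA gene in this way, Gm27530 and Gm27516.

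Counts were fitted with edgeR 4.0.16 (quasi-likelihood test, TMM scaling, the tool's filter on low counts, genotype as the only term) in R 4.3.3, and 3869 of 20579 genes were removed by the filter. CPM values use the TMM library sizes. A gene was called at an adjusted p below 0.05. Each SE of a log2 fold change is the size of that change divided by the square root of the edgeR F statistic. The procedure was tested on simulated data. The alternatives used DESeq2 1.42.0, limma 3.58.1, other scalings, added terms and left-out libraries. Libraries of one genotype differed by more than sampling noise, and p-values measure the spread between these libraries. Same-numbered libraries were not treated as pairs, as only some of their deviations correlated. At these depths 3 counts corresponded to 0.105 to 0.391 CPM, and this covers counting error only. Coordinates came from GENCODE M21 on GRCm38.

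The genes and lists were chosen with earlier results of these data known. The rule for named genes took all 9 genes, Cdkn1c and Hopx, genes starting within 250 kb of Fendrr, Foxf1 or Bvht, in each list the 4 tested genes with the smallest p (8 for gut mesenchyme factors), and the 5 genes most like Fendrr, Foxf1 and Bvht with a mean of at least 5 CPM, compared as log2 of CPM plus 0.5. Gata4, Ihh, Shh, Sox6, Eed and Thy1 were named after their values were seen. For 2 genes of the gut mesenchyme list single values are not reported here.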

Additional observations from a re-analysis of the deposited data

Results flagged for a closer look

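A value was looked at again where the highest or lowest of 5 libraries stood apart from the others by Dixon's criterion, which chance meets in about 1 of 20 groups. Of 26 groups examined, 5 met it. Foxf1 in p57WT 2 was at 274.8 CPM, against 81.7 to 120 CPM in the other p57WT libraries. Mthfsd, the next gene after Foxf1, was also highest in p57WT 2, at 46.17 CPM against 25.3 to 30.9 CPM. The ratio of Foxf2 to Foxf1 in p57WT 2 was 0.2305, against 0.660 to 0.805 in the other p57WT libraries. p57WT 2 is the one p57WT library with a ribosomal RNA share under 0.5%, and the part of that share in these values was not tested.

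In p57KO 5, the one p57KO library with a high ribosomal RNA share, Twist1 was at 8.502 CPM against 0.43 to 2.34 CPM in the other p57KO libraries. The ratio of Foxf2 to Foxf1 in p57KO 5 was 0.3504, against 0.178 to 0.213.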

How the results depend on the processing

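Each result was recomputed under 22 alternatives. Genes called numbered 6107 and became 10197, 14775 and 14362 with scaling to epithelium, stroma and smooth muscle markers, 1009 with label number as a term or within number 607 (the same contrast), and 2959 with the ribosomal RNA class as a term, chosen after seeing the data. Of the 5 tested genes, 4 were called lower. That count was 0 with stroma or smooth muscle scaling, 1 with the label number term or within number 607, and 4 to 5 with 1 library left out. Genes called lower went to 0 with stroma and smooth muscle scaling for gut mesenchyme factors, Hedgehog reception and FOXF1/FOXL1-linked genes. For gut mesenchyme factors they were 23 with epithelium scaling and 6 with the label number term or within 607. With stroma and smooth muscle scaling, the signs reversed for Foxf1 (1.34 and 1.09), Nkx2-3 (0.81 and 0.44), Twist1 (1.13 and 0.83) and Tcf21 (1.26 and 1.03), and with stroma scaling for Carmn (0.20). List medians turned to 2.27 and 1.85 (gut mesenchyme factors), 0.66 and 0.21 (Hedgehog), 0.93 and 0.66 (FOXF1/FOXL1-linked), 0.37 and 0.062 (smooth muscle), 0.61 and 0.23 (fibroblast) and 0.96 and 0.63 (pericyte). The divisor in these scalings is itself a list that fell, which moves all genes up. The epithelial list rose, with a median log2 fold change of 1.25, so dividing by it moves all genes down. With epithelium scaling 9682 of all 16710 genes tested were called lower. The cause of the other changes was not tested.

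Leaving out 1 library gave 4762 to 7141 genes called, 10 to 13 gut mesenchyme factors, 11 to 12 Hedgehog genes and 8 to 11 FOXF1/FOXL1-linked genes called lower. Foxf1 ranged from -1.69 to -1.07 (edgeR adjusted p 0.00881 to 0.0327) and Twist1 from -2.27 to -0.89. Twist1 also passed with limma voom (-1.71, adjusted p = 0.0353) and with epithelium scaling. Correlations of same-numbered libraries' deviations were 0.20, 0.05, -0.13, -0.12 and 0.15. Only for replicate 1 was the same-numbered library the best match in both directions. Such correlations cannot exclude that the numbers pair the samples. With a replicate block 5804 genes were called, and Twist1 was at -1.68 (edgeR adjusted p = 0.0307). Depth limits low values such as Twist1 in p57KO 1, at 0.43 CPM where 3 counts correspond to 0.257 CPM.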
